A study of Mus musculus with 2 samples.

Results

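The genes described here are 40 genes of S phase and DNA replication, given as a list of symbols by a rule that uses none of their measured values. They were all found among the 32285 genes of both matrices. They fall into 7 role groups: the MCM helicase (6 genes), licensing and origin firing (6), the sliding clamp, its loaders, primase and flap processing (9), deoxynucleotide supply (3), chromatin and histone supply (6), fork protection, checkpoint and repair (7), and control of the G1/S transition (3). Their messenger RNA was read in single LSK cells of the bone marrow. These lack lineage markers, carry Sca-1 and c-Kit, and include both haematopoietic stem cells (HSCs) and the multipotent progenitors (MPPs) that they give rise to. The chelator pool came from mice given deferoxamine, an iron chelator, at 50 mg/kg, and the control pool from mice given the vehicle HBSS. Injections were daily for 7 days in every 4 weeks, for 13 months from about 6 months of age. Each condition was 1 pool of cells with a hashtag of its own, and the 2 pools shared a single loading. The sources used here do not give the strain, the sex or the number of mice per pool. With 1 pool on each side no p-value was computed, and the intervals cover counting error only.

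A cell commits to S phase when E2F transcription factors switch on the replication genes. Origins are licensed in G1, when Cdc6 and Cdt1 load the MCM helicase, and are fired in S phase, when Cdc45 and the GINS complex join it. Most stem cells of adult marrow are quiescent and keep this programme low, whereas progenitors divide often. Replication also needs iron: ribonucleotide reductase, whose small subunit is encoded by Rrm2, makes deoxynucleotides with an iron cofactor, and several replication enzymes carry iron-sulfur clusters.

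The chelator pool held 3998 cells after filtering and the control pool 3969, with medians of 14455.5 and 13705 gene UMIs (unique molecular identifiers, 1 per captured RNA molecule) per cell. The members gave 231920 UMIs in the chelator pool and 212201 in the control pool. The LSK genes Kit, Ly6a and Cd34 were present in both pools, at 300 and 292 CPM (counts scaled to the same total of gene UMIs in every group of cells) for Kit. The 13 genes of mature cells summed to 429 CPM in the chelator pool, where Ly6g was at 0, and to 474 CPM in the control pool, where Cd3e was at 0. Among them, Lyz2 and Nkg7 stood at 205 and 178 CPM in the chelator pool and 196 and 185 CPM in the control pool. Cells were gated by the surface tags CD135, CD48 and CD150 into an HSC gate (CD150 alone; 1311 chelator and 1163 control cells), an MPP1 gate (none; 566 and 549), an MPP2 gate (CD48 and CD150; 101 and 91), an MPP3 gate (CD48 alone; 615 and 504) and an MPP4 gate (CD135 without CD150; 1285 and 1507). The CD135 boundary was the least sharp, with 22.2% of cells within 0.25 of it on the centred log ratio scale. The RNA of the gates was checked against markers: 8 HSC genes summed to 449 and 483 CPM in the MPP4 gate of the chelator and the control pool, against 1526 and 1594 CPM in the HSC gate, and lymphoid-primed genes summed to 1010 and 922 CPM in the MPP4 gate. The MPP3 gate also held lymphoid-primed RNA, as given below, and lay closer to MPP4 by this sum in the control pool. Both pools mixed cells of both sexes in unequal shares. Xist without Y-linked RNA marked 897 chelator and 1417 control cells, and Y-linked RNA without Xist marked 2542 and 1952, so values within each sex are given below.

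The promoters of members are shown because E2F factors are known to act through them. RefSeq promoters on GRCm38.p6, from 250 bases before to 50 bases after each start, were matched for 31 of the 40 genes and gave 36 promoters. The unmatched genes were Usp1, Gins2, Rfc2, Gmnn, Dscc1, Exo1, Mcm4, Tipin and Ccne2. A search on both strands for the E2F letters TTTCCCGC, TTTGGCGC, TTTCGCGC and TTTGCCGC found at least 1 in 14 of 36 member promoters (38.9%), against 2.26% of 32851 mouse promoters of the same length. The CCAAT letters were in 58.3% of member promoters against 37.4% of all, and TTTGAA, the core of the CHR element of late cell cycle genes, in 11.1% against 17.9%. By role, an E2F motif was found in 4 of the 5 MCM genes with a promoter, 2 of 4 licensing genes, 3 of 7 clamp and primase genes, 3 of 6 chromatin genes and 2 of 4 fork genes, but in 0 of 3 deoxynucleotide genes and 0 of 2 G1/S genes. The most abundant member with a motif in each of 5 role groups is printed, 5′ to 3′ on the strand of the gene, with E2F letters of either orientation in capitals.
Mcm6: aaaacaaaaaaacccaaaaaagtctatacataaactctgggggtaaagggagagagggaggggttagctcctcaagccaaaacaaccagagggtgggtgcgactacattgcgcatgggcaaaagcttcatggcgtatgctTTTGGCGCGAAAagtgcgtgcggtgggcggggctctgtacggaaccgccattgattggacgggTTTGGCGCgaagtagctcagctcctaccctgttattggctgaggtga
Cdca7: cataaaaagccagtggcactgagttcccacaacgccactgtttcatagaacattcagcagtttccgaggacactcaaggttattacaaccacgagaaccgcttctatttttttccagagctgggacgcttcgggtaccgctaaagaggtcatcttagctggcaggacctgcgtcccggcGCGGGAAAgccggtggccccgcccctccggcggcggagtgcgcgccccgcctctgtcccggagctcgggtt
Dtl: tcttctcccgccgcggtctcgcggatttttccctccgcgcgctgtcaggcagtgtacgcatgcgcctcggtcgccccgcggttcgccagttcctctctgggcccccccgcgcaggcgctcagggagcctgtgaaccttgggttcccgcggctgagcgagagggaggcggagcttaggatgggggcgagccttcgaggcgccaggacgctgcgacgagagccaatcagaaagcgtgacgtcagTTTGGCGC
Cdt1: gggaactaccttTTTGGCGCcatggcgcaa
Lig1: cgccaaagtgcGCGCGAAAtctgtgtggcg

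The first 3 are the 250 bases upstream of the start, at chr1:128359706-128359955 on the minus strand for Mcm6, chr2:72475969-72476218 on the plus strand for Cdca7 and chr1:191575545-191575794 on the minus strand for Dtl. In Cdt1 (chr8:122568035-122568064) and Lig1 (chr7:13278841-13278870), both on the plus strand, the motif lies just downstream of the start and 30 bases around it are shown. Mcm6 holds 3 motifs, the first 2 of which overlap and read in opposite directions. In Dtl the motif is the last 8 bases before the start. A match is a run of letters, not a measured E2F site. Members with and without a motif differed little in how they varied between gates: in the MPP3 gate their median fold over the HSC gate was 2.14 (14 genes) and 2.02 (17 genes) in the chelator pool, and 2.30 and 2.22 in the control pool.

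Replication genes were higher in all 4 progenitor gates than in the HSC gate, and in the same order in both pools. The summed members stood at 4498 CPM in the MPP3 gate of the chelator pool, 4066 CPM in MPP2, 4046 CPM in MPP4 and 3091 CPM in MPP1, against 2308 CPM in the HSC gate. In the control pool the values were 4528 CPM in MPP3, 3806 CPM in MPP2, 3770 CPM in MPP4 and 2909 CPM in MPP1, against 2187 CPM in the HSC gate. The MPP2 and MPP4 gates did not differ beyond counting error in either pool. As a fold over the HSC gate the MPP3 value was 1.95 (95% interval 1.93 to 1.97) in the chelator pool and 2.07 in the control pool. A member was called when it was past 2-fold with an interval leaving out 1 and had at least 100 UMIs over the 2 gates. In the MPP3 gate 24 of 40 members were called higher in the chelator pool (5.69% of all genes) and 30 of 40 in the control pool (4.63%). In the MPP4 gate 11 of 40 were called in each pool (6.53% of all genes in the chelator pool and 5.73% in the control pool), and in the MPP2 gate 12 of 39 (4.08%) and 10 of 39 (3.51%). The MPP1 gate gave 0 in the chelator pool (1.6%) and 1, Cdc6, in the control pool (1.48%). No member was called lower in any gate. For MPP1 to MPP4 the share of all genes called lower was 3.88%, 10.2%, 10.6% and 10.4% in the chelator pool and 3.52%, 8.9%, 10.1% and 9.49% in the control pool. Depth differed as well, with medians of 18422 and 18644.5 UMIs per cell in MPP3 against 13312 and 12693 in the HSC gate. A rise over the HSC gate was not particular to the members. In MPP3 the sum of 35 G2 and mitosis genes was 2.76-fold the HSC gate's (chelator pool) and 1.94-fold (control pool). A separate list of 76 further replication genes gave 1.64-fold and 1.62-fold. By the rule above, 35 and 12 of the 35 were called higher, and 28 and 20 of the 76. The 35 genes gave 3.63-fold and 2.76-fold in MPP2, and 1.74-fold and 0.955-fold in MPP1.

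By role, the licensing group stood furthest above the HSC gate in the MPP3 gate of both pools. It was 2.39-fold higher in the chelator pool and 2.41-fold in the control pool, the deoxynucleotide group 2.29-fold and 2.17-fold, the chromatin group 1.77-fold and 1.87-fold, and the G1/S group 1.71-fold and 2.30-fold. Mcm6, a subunit of the helicase ring, had 330 CPM in the MPP3 gate and 187 CPM in the HSC gate of the chelator pool, and 353 and 176 CPM in the control pool. Mcm3, its ring partner, had 243 and 131 CPM in the chelator pool and 249 and 121 CPM in the control pool. These MCM values lie close to 2-fold, with Mcm5 the steepest of the ring (2.21-fold and 2.66-fold).

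Gmnn, which encodes geminin, the inhibitor of Cdt1, was 2.62-fold higher in the MPP3 gate of the chelator pool and 2.31-fold in the control pool. Cdt1 itself was 2.17-fold and 2.47-fold higher. Cdc6, the licensing ATPase, had 35.9 CPM in the MPP3 gate against 12.8 CPM in the HSC gate of the chelator pool, and 37.8 against 12.5 CPM in the control pool, and was among the steepest members. Among clamp genes, Pcna, the sliding clamp, was 1.68-fold and 1.89-fold higher, and Rfc2, a clamp loader subunit, 2.05-fold and 2.06-fold. Rfc3, of the same loader complex, was 1.37-fold and 1.43-fold higher. Cdc6, Mcm5 and Rfc3 were singled out here after their values were seen, as were the other members named only in the next paragraph.

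Rrm1, the large subunit of ribonucleotide reductase, had 199 CPM in the MPP3 gate and 98.3 CPM in the HSC gate of the chelator pool, and 189 and 98.6 CPM in the control pool. Rrm2, the small, iron-bearing subunit, had 99.3 and 31.9 CPM in the chelator pool and 90.4 and 33.0 CPM in the control pool. The small subunit thus differed more between gates (3.11-fold and 2.74-fold) than the large one (2.03-fold and 1.91-fold). Tyms, thymidylate synthase, was 2.28-fold and 2.27-fold higher. Chaf1b, a subunit of the histone chaperone CAF-1, was the flattest member: 78.1 CPM in the MPP3 gate against 72.2 CPM in the HSC gate of the chelator pool, and 78.0 against 70.1 CPM in the control pool. Blm, a helicase that resolves recombination intermediates, was 3.17-fold and 3.15-fold higher in the MPP2 gate than in the HSC gate, and 2.02-fold and 2.18-fold higher in the MPP3 gate. The MPP2 gate also held erythroid marker RNA at 701 and 666 CPM, against 136 and 165 CPM in the MPP3 gate; its part in the Blm value was not tested.

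**Figure D1:**
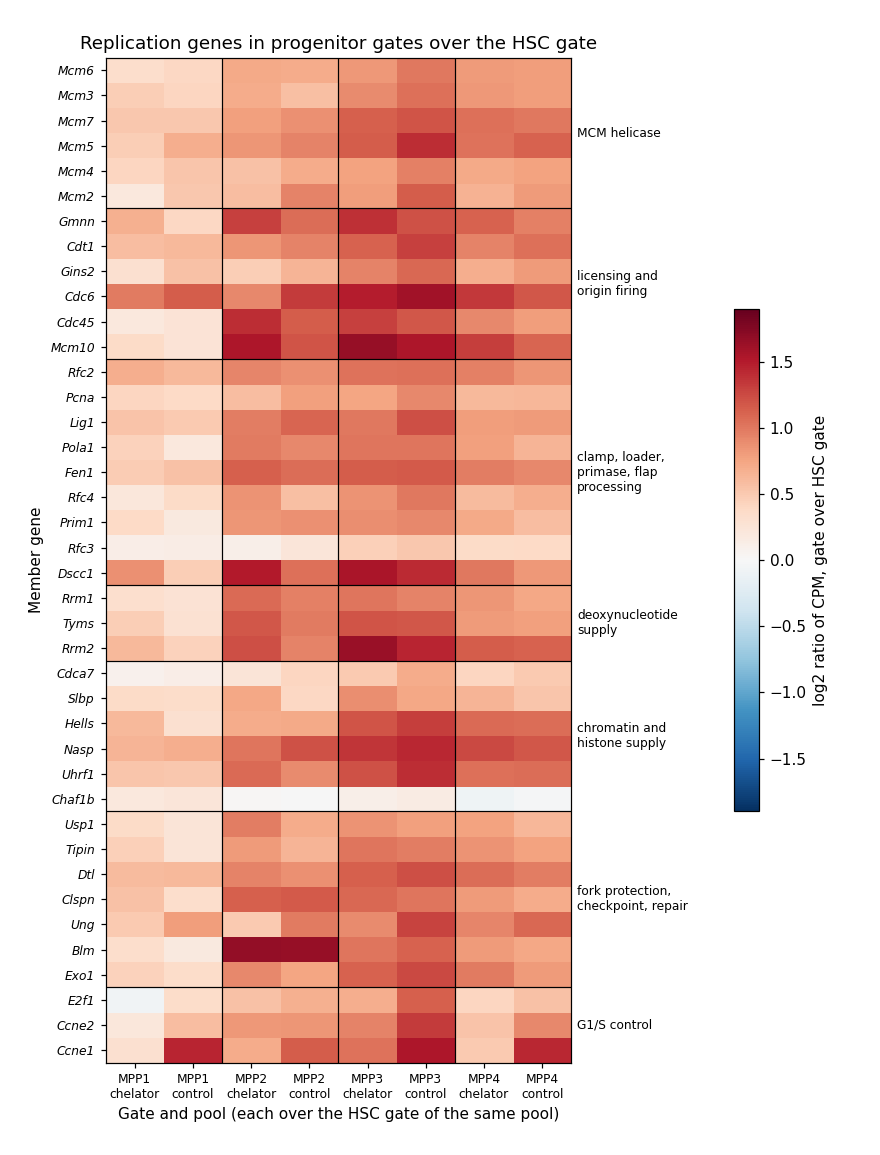
Log2 ratio of CPM in each progenitor gate over the HSC gate of the same pool, for 40 members (rows, by role) and 4 gates in the chelator and the control pool (columns); red is higher in the progenitor gate. The MPP3 columns are the reddest, Chaf1b is near white in every column, and Blm stands out in the MPP2 columns.

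The gates also differed in how many of their cells carried many member UMIs. Each cell was thinned to 5000 gene UMIs, which left out 138 chelator and 159 control cells that had fewer, and a cell with at least 15 member UMIs was called S-high. In the chelator pool 67.3% of MPP2, 59.0% of MPP3, 47.4% of MPP4 and 28.2% of MPP1 cells were S-high, against 18.9% in the HSC gate. In the control pool the shares were 57.8% of MPP2, 60.3% of MPP3, 44.6% of MPP4 and 23.6% of MPP1 cells, against 16.8% in the HSC gate. The MPP2 and MPP3 shares overlapped in their intervals in both pools. The median HSC-gate cell carried 5 member UMIs per 5000 in the chelator pool and 4 in the control pool, and the median MPP3 cell 18 and 19.5. S-high is a range of a score and not a cell type: 9.43% of chelator and 9.19% of control cells lay at 12 to 17 member UMIs. S-high cells also held more RNA, with medians of 20853 and 20333 UMIs against 12551 and 12116 in the rest. Without thinning 35.8% of chelator and 33.9% of control cells passed, against 37.1% and 35.4% with it.

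**Figure D2:**
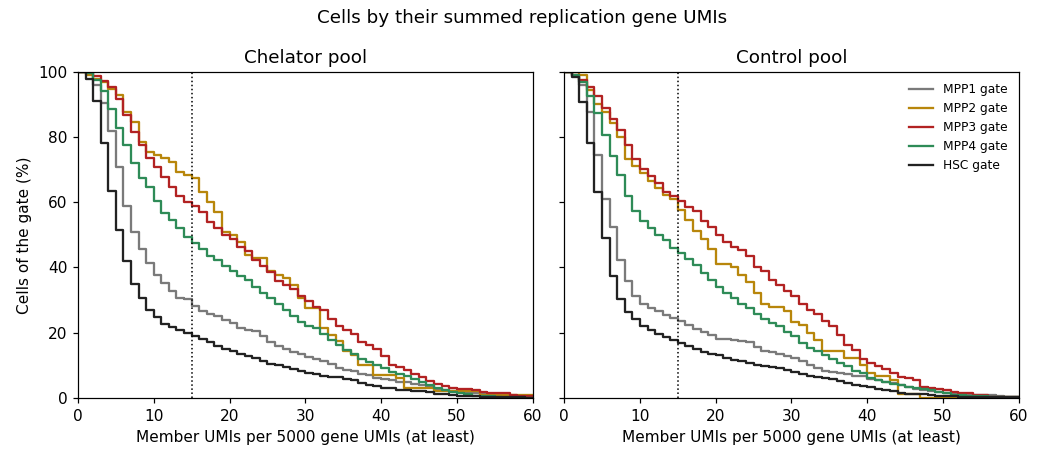
Share of cells (%) with at least the number of member UMIs on the x axis, after thinning each cell to 5000 gene UMIs, by gate in the chelator pool (left) and the control pool (right); the dotted line marks the S-high boundary at 15. At the boundary the HSC curve is lowest and the MPP2 and MPP3 curves are highest in both panels; the MPP2 curve later drops below others.

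Members did not all stand highest in the same class of cells. The classes are cuts on RNA counts, not measured points of the cycle. Thinned cells were split at the 75th percentile of replication-dependent histone UMIs (13) and of UMIs of 35 G2 and mitosis genes (7), neither of which are members. Cells high in neither made up 67.3% of the chelator and 68.5% of the control pool, and cells high in both 19.4% and 17.9%. Cells high in G2M RNA but below the histone cut (G2M-only) made up 7.18% and 6.35%. Cells high in histone RNA but below the G2M cut (histone-only) made up 6.14% and 7.19%. Summed members stood at 5026 and 5589 CPM in G2M-only cells and at 4642 and 4535 CPM in cells high in both, against 2746 and 2573 CPM in cells high in neither. Histone-only cells were lowest, at 2307 and 2202 CPM. The highest class was G2M-only for 25 members in the chelator pool and 34 in the control pool, and cells high in both for 15 and 6. It was the same class in both pools for 31 members. All 40 members were higher in G2M-only cells than in cells high in neither, in both pools, with intervals leaving out 1. Rrm2 was the steepest of these, at 130 CPM against 17.9 CPM in the chelator pool and 139 against 16.2 CPM in the control pool. In histone-only cells 16 members were below cells high in neither in both pools with intervals leaving out 1, and by the same rule 0 were above in both. G2M-only cells and cells high in both were deeper (medians of 22740 and 25440 UMIs in the chelator pool) than cells high in neither (13215.5). Gate make-up differed too: in the chelator pool 27.1% of G2M-only cells and 10.2% of cells high in neither were in the MPP3 gate. The part of depth and gates in the values was not tested. For these classes the share of all genes passing the same rules was not computed. How unusual the counts of members are was therefore not tested.

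The contrast between cells high in both and G2M-only cells was added after the values were seen. Ung, the uracil-DNA glycosylase that removes uracil from new DNA (chr5:114130366-114139321), had 13.8 CPM in chelator cells high in both, 81.3 CPM in G2M-only cells and 46.9 CPM in cells high in neither. In the control pool Ung had 12.7, 91.7 and 45.0 CPM in those classes. It was thus lower in cells high in both than even in cells high in neither (log2 ratio −1.76 and −1.83), and Chaf1b was the only other member with an interval below 1 in both pools (−0.10 and −0.12). E2f1, the transcription factor at the head of the programme, had 34.3 CPM in chelator cells high in both and 65.5 CPM in G2M-only cells, against 35.2 and 83.0 CPM in the control pool. Cdc6 followed the same order, at 30.6 and 50.7 CPM in the chelator pool and 29.7 and 56.7 CPM in the control pool.

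At the other end, Rrm1 and Tyms were the 2 members whose intervals lay above 1 in both pools for cells high in both over G2M-only cells. Rrm1 had 278 CPM in cells high in both and 210 CPM in G2M-only cells of the chelator pool, and 278 and 225 CPM in the control pool. Tyms had 228 and 193 CPM in the chelator pool and 223 and 198 CPM in the control pool. In all, 23 members were lower in cells high in both than in G2M-only cells in both pools, with intervals below 1. For this count too, the share of all genes was not computed.

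**Figure D3:**
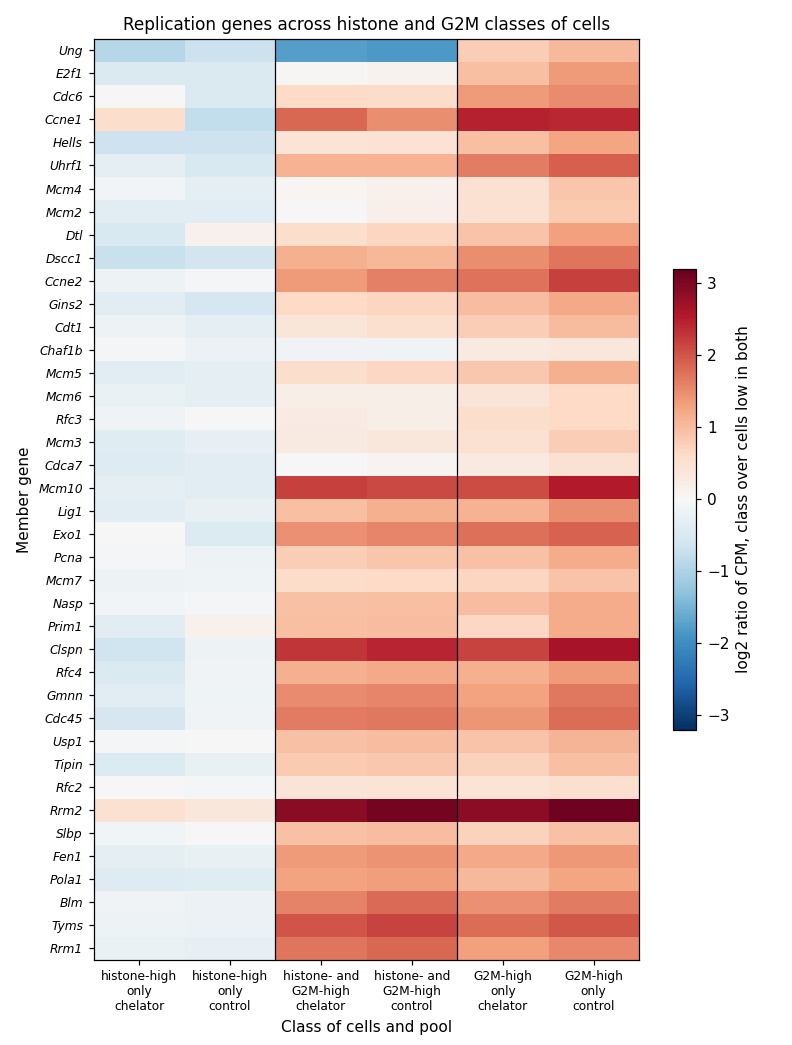
Log2 ratio of CPM in 3 classes of cells over the cells high in neither histone nor G2M RNA, for 40 members (rows, ordered by the control pool's ratio of cells high in both over G2M-only cells) in the chelator and the control pool (columns). Ung at the top is blue in cells high in both and red in G2M-only cells, and Rrm1 and Tyms at the bottom are red in both of these classes.

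Between the conditions, replication genes as a set were slightly higher in the chelator pool. Summed members stood at 3487 CPM in chelator and 3355 CPM in control LSK cells, a log2 ratio of 0.055 (95% interval 0.047 to 0.064). The median member was at 0.056, against −0.0020 over all genes with at least 100 UMIs, and 36 of 40 members lay above 0. The differences were small: past 1.1-fold with an interval leaving out 1, 2 of 40 members were higher (4.61% of all genes) and 0 lower (4.66%). The rise was not particular to replication genes. Of 35 G2 and mitosis genes, 11 were higher by this rule and 0 lower. Of these 35 genes, 34 lay above 0, with a median of 0.11. Prim1, the catalytic subunit of DNA primase (chr10:128015215-128030030), had 53.4 CPM in the chelator pool and 47.5 CPM in the control pool, a log2 ratio of 0.17 (0.099 to 0.24). Mcm10, which helps to activate the loaded helicase (chr2:4990724-5012791), had 17.6 CPM in the chelator pool and 15.8 CPM in the control pool, a log2 ratio of 0.16 (0.035 to 0.28).

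The next highest ratios were those of Ccne2 (0.14), which encodes cyclin E2, Clspn (0.13), the checkpoint adaptor claspin, and Pola1 (0.12), the polymerase of the primase complex. None of these passed the rule; with Prim1, Pola1 made a pair from 1 enzyme. The lowest were Ccne1 (−0.052), which encodes cyclin E1, E2f1 (−0.028), Rfc2 (−0.025), Dscc1 (−0.012), of an alternative clamp loader, and Mcm7 (0.0082). Rrm2 was at 62.0 and 60.5 CPM (0.036) and Rrm1 at 152 and 145 CPM (0.063), so neither subunit of the iron-dependent reductase passed the rule. Of 76 further replication genes from a separate list, 7 were higher and 0 lower in whole LSK. Recql4, a helicase of replication initiation, had the highest ratio (0.21), followed by E2f7 (0.18), a repressor of the E2F family, and Mcm8 (0.17). The lowest were Samhd1 (−0.085), which breaks down deoxynucleotides, Mcm9 (−0.067) and Dctd (−0.062), the dCMP deaminase. With the control pool's gate shares applied to both pools the summed log2 ratio of the members was 0.070.

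**Figure D4:**
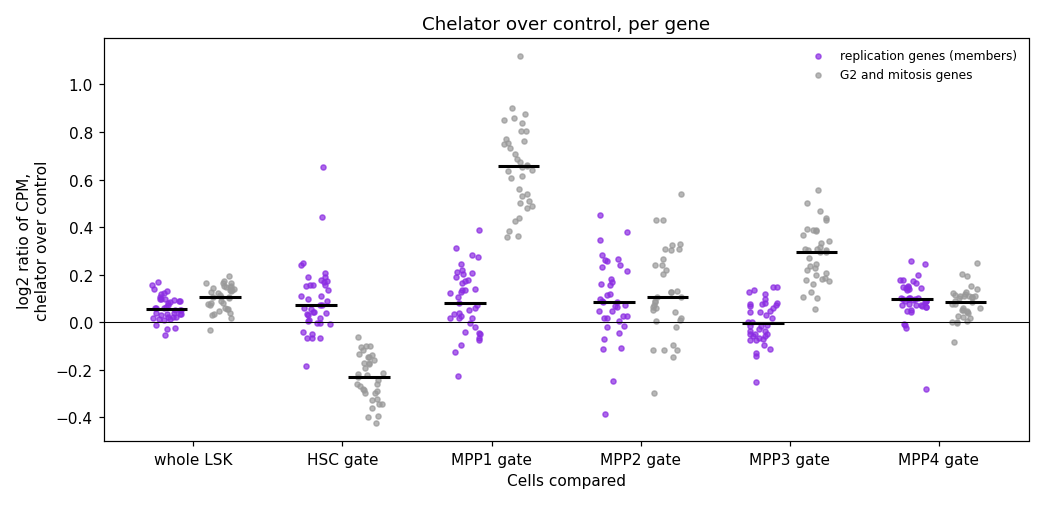
Log2 ratio of CPM, chelator over control, for each member with at least 100 UMIs (purple) and each of 35 G2 and mitosis genes (grey) in whole LSK and in each gate; black bars are medians and horizontal scatter is random. Member medians lie slightly above 0 in all columns but MPP3. The median of the G2 and mitosis genes lies below 0 in the HSC gate and above it in all other columns, furthest in MPP1 (0.66) and MPP3 (0.30).

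In the HSC gate, 14 of the 40 members were higher in the chelator pool, while most genes of G2 and mitosis were lower. Summed members stood at 2308 CPM in the chelator pool and 2187 CPM in the control pool (log2 ratio 0.078, 0.058 to 0.098). The 14 higher members of 40 compare with 3.93% of all genes, and the 0 lower members with 5.56%. All 3 G1/S genes were among them: Ccne1 with 72 UMIs in the chelator pool and 39 in the control pool (log2 ratio 0.65, with a lower bound of 0.072), Ccne2 with 169 and 106 UMIs (0.44), and E2f1 with 567 and 423 UMIs (0.19). The others were Mcm2, Mcm4 and Mcm5 of the helicase, Cdt1 and Gins2 of licensing and firing, Pcna, Rfc4 and Lig1 of lagging-strand synthesis, Uhrf1 and Cdca7 of chromatin, and Ung (25.6 against 21.5 CPM, 0.25). The deoxynucleotide group gave none, with Rrm2 at 31.9 and 33.0 CPM and Rrm1 at 98.3 and 98.6 CPM. The lowest members were Dscc1 (−0.18, −0.49 to 0.12), Rfc2 (−0.066) and Slbp (−0.066), the histone mRNA binding protein. The 76 further replication genes did not share this rise in the HSC gate. Of them 3 were higher (3.95%) and 2 lower (2.63%), with a median log2 ratio of 0.015.

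Of the 35 G2 and mitosis genes, 22 were lower in the chelator HSC gate and 0 higher. Their sum was 1360 CPM in the chelator pool and 1596 CPM in the control pool (−0.23), and replication-dependent histones summed to 2212 and 2691 CPM (−0.28). Among S-high cells of the HSC gate, 35.4% of 240 chelator cells and 43.4% of 189 control cells were also G2M-high, a difference of −7.97 percentage points (−17.5 to 1.65) whose interval includes 0. The share of S-high cells was 18.9% in the chelator pool and 16.8% in the control pool, a difference of 2.10 points (−1.04 to 5.21), again within counting error. Within cells with Xist the HSC gate held 8 members higher (4.32% of all genes) and 1 lower (5.91%), the lower one being Tipin (−0.22), and within cells with Y-linked RNA 5 higher (4.28%) and 0 lower (5.29%). Mcm2 was the only member called higher in both sexes, beside Mcm4, Mcm5, Lig1 and Cdca7 in Y-linked cells. The summed log2 ratio was 0.098 in Xist cells and 0.064 in Y-linked cells, whereas G2 and mitosis genes were at −0.76 and −0.10.

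In the MPP3 gate replication genes were level between the pools while G2 and mitosis genes were higher in the chelator pool. Summed members did not differ beyond counting error, at 4498 CPM in the chelator pool and 4528 CPM in the control pool (−0.0095, −0.028 to 0.0086). Of 40 members 0 were higher (6.49% of all genes) and 1 lower (5.51%): E2f1, at 47.1 CPM in the chelator pool and 56.0 CPM in the control pool (−0.25, −0.42 to −0.080). All 6 MCM genes lay below 0 (−0.11 to −0.035) and all 3 deoxynucleotide genes above it (0.067 to 0.13), with Rrm2 at 99.3 and 90.4 CPM. Exo1 (−0.14) and Ung (−0.13) followed E2f1 at the low end, and Mcm10 (0.15) and Ccne1 (0.15) were at the high end. Here 29 of 35 G2 and mitosis genes were higher in the chelator pool, with a sum of 3751 CPM against 3094 CPM in the control pool (0.28). Among S-high MPP3 cells 58.0% of 348 chelator cells and 48.3% of 292 control cells were G2M-high, a difference of 9.76 points (1.78 to 17.6). Within Xist cells 4 of 35 G2 and mitosis genes were higher and 1 lower (sum 0.048), and within Y-linked cells 24 were higher and 0 lower (sum 0.29). Members gave sums of 0.039 in Xist cells and −0.0097 in Y-linked cells. In Xist cells 4 of 39 members, Rrm2, Slbp, Tipin and Dtl, were higher (3.7% of all genes) and 0 lower (5.46%). In Y-linked cells Rfc3, Tyms and Rrm1 were the 3 higher members (6.47%), and Mcm2 and E2f1 the 2 lower ones (5.22%). The gate's make-up differed too: lymphoid-primed marker genes summed to 424 CPM in the chelator pool and 729 CPM in the control pool. Their part in the result was not tested.

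In the MPP4 gate members of 5 of the 7 role groups were higher in the chelator pool. Summed members stood at 4046 CPM in the chelator pool and 3770 CPM in the control pool (log2 ratio 0.10), and 13 of 40 members were higher (3.62% of all genes) and 0 lower (5.35%). The highest were Prim1 (60.6 against 50.8 CPM, 0.26), Mcm10 (21.7 against 18.3 CPM, 0.24) and Cdc6 (32.5 against 28.3 CPM, 0.20). By role, 5 of the 9 clamp and primase genes were called, Pola1, Prim1, Pcna, Rfc3 and Lig1, with 3 of 7 fork genes and 0 of 3 deoxynucleotide genes. The lowest were Ccne1 (−0.28, −0.63 to 0.067), Rrm2 (70.9 against 72.1 CPM, −0.024) and Chaf1b (−0.010). G2 and mitosis genes shifted by a similar amount, with a sum at 0.082. Their median was 0.087 against 0.096 for the members, and 33 of 35 lay above 0 against 36 of 40 members. By the rule 4 of 35 were higher (Aurka, Kif20a, Nuf2 and Dlgap5). In Xist cells 8 members were higher (4.84% of all genes) and 1 lower (4.65%), and in Y-linked cells 25 higher (4.85%) and 1 lower (8.5%). Cdc6, Pcna, Pola1, Prim1 and Lig1 were higher in both sexes, whereas Rrm2 was lower in Xist cells (−0.31) and higher in Y-linked cells (0.22), where Ccne1 was the lower member (−0.52). Erythroid marker RNA summed to 94.7 CPM in the chelator and 632 CPM in the control MPP4 gate, and its part in the result was not tested. Over whole LSK the globin genes Hbb-bs (13.3 and 190 CPM) and Hba-a1 (1.53 and 22.7 CPM) differed most among these markers. Tfr2 (59.8 and 62.2 CPM) and Epor (6.95 and 7.53 CPM) differed little.

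In the MPP1 gate, pooled values and values within each sex disagreed. Summed members stood at 3091 CPM in the chelator pool and 2909 CPM in the control pool (0.088), and 10 of 39 members that reached 100 UMIs were higher (6.59% of all genes) and 0 lower (4.28%). Hells, a chromatin remodeller, led (89.5 against 68.3 CPM, 0.39), before Prim1 (0.31) and Clspn (0.28), and E2f1 (−0.23), Cdc6 (−0.13) and Cdc45 (−0.097) were lowest. Within the sexes the sum was lower in the chelator pool, at −0.064 in Xist cells and −0.053 in Y-linked cells. In Xist cells 1 of 34 members, Tipin, was higher (4.94% of all genes), and 2, Cdc6 and Rfc2, were lower (5.31%). In Y-linked cells 1 of 37 members, Hells, was higher (7.95%), and 6 were lower (4.82%), among them Ung (−0.39) and E2f1 (−0.37). The cells that met neither sex rule were 99 in the chelator pool and 110 in the control pool, with 3343 CPM in the chelator pool and 1433 CPM in the control pool. G2 and mitosis genes were higher in the pooled gate (34 of 35, sum 0.64) and in each sex (0.43 and 0.75).

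The MPP2 gate was small. Its members summed to 4066 CPM in the chelator pool and 3806 CPM in the control pool (0.095), and 6 of 38 were higher (3.95% of all genes) and 0 lower (5.07%). Rfc4 (86.1 against 62.9 CPM, 0.45), Mcm10 (0.38) and Uhrf1 (0.35) were highest, and Cdc6 (−0.38), Ung (−0.25) and Mcm2 (−0.11) lowest. The sexes pointed in opposite directions, at −0.080 in Xist cells and 0.30 in Y-linked cells.

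Over whole LSK the small difference between conditions took opposite signs in cells of the 2 sexes. In Xist cells the members summed to 3654 CPM in the chelator pool and 3706 CPM in the control pool (−0.021, −0.036 to −0.0055), with 0 of 40 members higher (7.08% of all genes) and 0 lower (6.41%). In Y-linked cells they summed to 3514 CPM in the chelator pool and 3273 CPM in the control pool (0.10), with 12 of 40 higher (4.83%) and 1 lower (6.91%), the lower one being Ccne1 (−0.34). With the control pool's gate shares applied within each sex the ratios were 0.045 in Xist cells and 0.089 in Y-linked cells, both above 0. S-high cells made up 39.3% of chelator and 41.8% of control Xist cells, a difference of −2.50 points (−6.68 to 1.72), and 37.7% and 34.2% of Y-linked cells, a difference of 3.55 points (0.66 to 6.43). The Y-linked difference left out 0 by counting error, and the difference between the sexes was not tested.

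**Figure D5:**
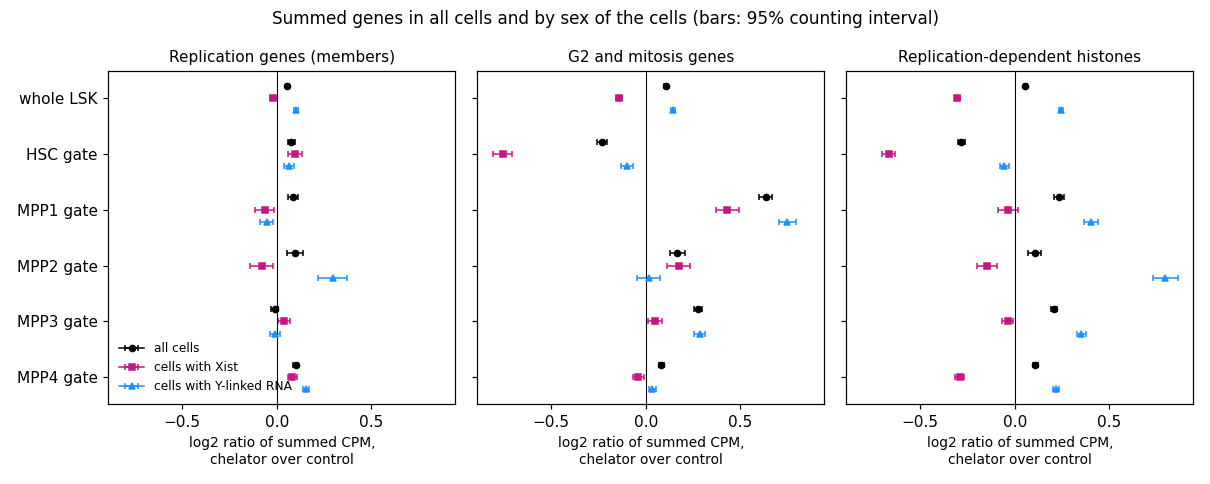
Log2 ratio of summed CPM, chelator over control, for the members, 35 G2 and mitosis genes and 67 replication-dependent histone genes, in whole LSK and each gate (rows), over all cells (circles), cells with Xist (squares) and cells with Y-linked RNA (triangles); bars are 95% counting intervals. Member sums lie between −0.080 and 0.10 except in Y-linked cells of MPP4 (0.16) and MPP2 (0.30), whereas the G2 and mitosis sum lies below 0 in the HSC gate and above it in MPP1.

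Surface transferrin receptor, the iron importer read by the CD71 tag, was higher on S-high cells; this tag was picked after its values were seen. In the HSC gate its median centred log ratio was −0.75 in S-high and −1.13 in other cells of the chelator pool, and −0.56 in S-high and −0.83 in other cells of the control pool. The difference between S-high and other cells was 0.38 in the chelator pool and 0.27 in the control pool. In the MPP3 gate it was 0.088 and 0.071. A difference of this kind was not particular to CD71. For the CD98 tag it was 0.35 and 0.34 in the HSC gate, and 0.031 and 0.12 in the MPP3 gate. S-high cells of the HSC gate also held more tag UMIs in all, with means of 5777 and 5131 against 4937 and 4510 in other cells. The CD71 medians were 2 to 4 UMIs in these HSC-gate cells, so the values are coarse.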

How the data were processed

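LSK cells from mouse bone marrow were profiled by CITE-seq with a 10x Genomics 5′ kit, per the labels' protocols. Each of the 2 matrices that the authors deposited holds raw counts (UMIs) of 32285 genes, 126 surface tags and 2 hashtags. Cell Ranger 7.0.0, Seurat 4.3.0 and mm10 were used, per the submitters' processing notes, and the file headers name Cell Ranger 7.0.1. How barcodes were filtered and assigned to hashtags before deposit is not stated in those sources. Each matrix was given its condition by its name and checked against the labelled hashtag, the stronger one in 4037 of 4037 chelator and 4025 of 4026 control barcodes. No barcode was shared.

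The rule for the members uses none of their measured values, but the members, lists and tests were chosen with earlier results of these data known. A filter on cells (500 genes or more, mitochondrial UMIs below 10%) left out 39 chelator and 57 control barcodes. Doublets were kept, no doublet caller was run, and cells with both sex markers (52 and 35) were left out as an alternative. Gates came from a 2-component Gaussian mixture of per-cell centred log ratios for each of 3 tags (scikit-learn 1.9.0). Counts were summed over cells and divided by all gene UMIs (66508812 chelator, 63240358 control). Ratios carry exact conditional binomial 95% intervals, shares Clopper-Pearson intervals, and differences of shares intervals built from both (scipy 1.17.1). With 1 pool per condition no p-value was computed. Random thinning to 5000 UMIs used 1 seed. Xist cells had at least 2 Xist UMIs and no Y-linked UMI, and Y-linked cells at least 1 UMI over 4 Y-linked genes and no Xist. The ratio and its interval were checked on simulated counts.

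Genes were named by rule: for gates and cycle classes the 2 members with the most UMIs in each role, between conditions the 5 highest and 5 lowest ratios in whole LSK and 3 and 3 in a gate, of other replication genes 3 and 3, and for sequences the most abundant member with an E2F motif in up to 5 roles. Others were named after their values were seen. The alternatives were cell filters, doublet removal, denominators, sexes weighted equally, fixed gate shares, equal weight per cell, shifted tag thresholds, other UMI minimums, folds and S-high boundaries, unthinned shares and leaving out the top 2 members. Leaving out cells over 40000 UMIs and counting HSC-gate calls within each sex were added after the data were seen. Levels of different genes were not compared, since UMI capture differs by gene.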

Additional observations from a re-analysis of the deposited data

Results flagged for a closer look

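Several differences between the conditions pointed in opposite directions in Xist cells and in Y-linked cells, with both intervals leaving out 0. The difference between the sexes was not tested in any of them, and the number of mice behind each sex is not given in the sources used here. For the summed members in whole LSK the log2 ratio of chelator over control was −0.021 in Xist cells and 0.10 in Y-linked cells, a difference of −0.12. The MCM helicase group gave −0.046 and 0.086 (difference −0.13), and the chromatin and histone supply group −0.039 and 0.10 (difference −0.14). In the small MPP2 gate the summed members gave −0.080 and 0.30 (difference −0.38) and the chromatin group −0.17 and 0.39 (difference −0.56). Single members with the same pattern in whole LSK were Mcm3, at −0.068 and 0.15 (difference −0.22), Rrm1, at −0.083 and 0.12 (difference −0.20), and Nasp, a histone chaperone, at −0.13 and 0.12 (difference −0.26). With the control pool's gate shares applied within each sex, the summed members in whole LSK were at 0.045 and 0.089, both above 0. Groups and single members were not recomputed in that way.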

How the results depend on the processing

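No paired analysis was possible because there was 1 pool per condition and the labels give no replicate numbers. Across 21 settings and 46 results, the summed log2 ratio of chelator over control kept its sign in every setting run for whole LSK, the HSC gate and the MPP4 gate. It did not in the others. With the sexes weighted equally it was −0.059 in MPP1 (median member −0.074), 0.015 in MPP3, 0.12 in MPP4 and 0.038 in whole LSK (median member 0.034). With tag thresholds raised it was −0.0044 in MPP1, −0.044 in MPP2, 0.069 in MPP3, 0.098 in the HSC gate and 0.086 in MPP4, and the MPP2 difference in S-high share was −6.83 points. With thresholds lowered it was 0.13 in MPP1, −0.042 in MPP3 and 0.14 in the HSC gate. With every cell counting alike it was 0.067 in whole LSK, 0.18 in MPP1 and 0.12 in MPP4, and with fixed gate shares 0.070 in whole LSK. Without cells over 40000 UMIs it was 0.14 in MPP1, −0.033 in MPP3 and 0.12 in MPP4.

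Counts of members called depended on the fold. Apart from the counts by sex, the share of all genes called was not computed at the settings below. How unusual those counts are was therefore not tested. At the stricter fold, 0 were higher in whole LSK, 2 in the HSC gate, 1 in MPP1, 2 in MPP2 and 0 in MPP4, and 0 were lower in MPP3. Within the HSC gate 8 were higher and 1 lower in Xist cells, and 5 higher in Y-linked cells. Without cells over 40000 UMIs 4 were higher in whole LSK, 17 in MPP1 and 1 in MPP3; with no cell filter, the stricter one or the reduced denominator, 1 was higher in MPP3.

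Progenitor gates stayed above the HSC gate in every setting. With every cell counting alike the summed log2 ratios were 0.48, 1.18, 1.22 and 0.95 for MPP1 to MPP4 in the chelator pool and 0.37, 1.17, 1.31 and 0.92 in the control pool. With the reduced denominator they were 0.39, 0.75, 0.90 and 0.77 in the chelator pool, and 0.73, 0.98 and 0.75 for MPP2 to MPP4 in the control pool. Scaling by the median gene gave 0.39 (MPP1) and 0.995 (MPP3) in the chelator pool and 1.09 (MPP3) in the control pool. Raised thresholds gave 0.76 (MPP2), 1.003 (MPP3) and 0.79 (MPP4) in the chelator pool and 0.51 (MPP1) and 0.90 (MPP2) in the control pool; lowered ones gave 0.47 (MPP1) and 0.91 (MPP3) in the chelator pool and 0.48, 0.90, 1.09 and 0.86 for MPP1 to MPP4 in the control pool. Without cells holding both sex markers MPP2 gave 0.85 in the chelator and 0.86 in the control pool, with 17 members called in the control pool, and 1 was called in MPP1 of the chelator pool. Past 1.5-fold, 9, 30, 37 and 34 members were called for MPP1 to MPP4 in the chelator pool, and 8, 33 and 34 for MPP1, MPP2 and MPP4 in the control pool. A UMI minimum of 20 gave 2 in MPP1 and one of 500 gave 0 in MPP1 and 5 in MPP2 of the control pool. For these counts too, the share of all genes called was not computed. Causes were not tested. The few MPP2 cells and the low counts of Ccne1 limit what can be read from them.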
